A study of Mus musculus with 6 samples.

Results

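Native cardiac fibroblasts (CFs) of WT and CharmeKO mice were compared here for 10 genes that encode interferon-inducible GTPases: *9930111J21Rik1*, *9930111J21Rik2*, *Tgtp1*, *Tgtp2*, *Irgm1*, *Irgm2*, *Igtp*, *Ifi47*, *Gbp2* and *Gbp3*. They are 10 of the 49548 genes in the count table, taken by symbol, and all 10 were among the 15789 genes with enough counts to be tested. The genes were chosen by their values in the CharmeKO against WT contrast, in particular the near absence of *9930111J21Rik2* reads in CharmeKO, so their differences between genotypes are described here and carry no test of their own.

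CharmeKO mice have a polyadenylation signal inserted in the locus of *Charme*, a long non-coding RNA of muscle, and WT mice do not; both are C57BL/6J animals aged 5 weeks. Each genotype had 3 libraries of poly(A)-selected mRNA. Cells came from dissociated hearts after removal of cardiomyocytes, lysis of red cells and depletion of hematopoietic lineages, although the labels also list a growth medium. Per the methods, hearts of 3 WT and CharmeKO mice were used, but the labels do not tie a library to an animal.

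Libraries held between 9595701 and 42101393 counts, and WT replicate 3 was the shallowest. *Charme* had 26, 15 and 4 counts in WT replicates 1, 2 and 3 and 7, 0 and 0 counts in CharmeKO replicates 1, 2 and 3. All 10 fibroblast markers were detected, with summed levels of 39937 to 42857 CPM, the count scaled to library size, in WT and 33203 to 41428 CPM in CharmeKO. The 10 leukocyte markers summed to 30.2 to 57.9 CPM in WT and 41.2 to 56.0 CPM in CharmeKO. The 8 endothelial markers summed to 6167 to 7748 CPM in WT and 6708 to 8118 CPM in CharmeKO, the 7 mural markers to 2294 to 2657 and 2310 to 2706 CPM, and the 5 erythroid markers to 26774 to 39207 and 24411 to 31742 CPM. The 8 cardiomyocyte markers summed to 218 to 283 CPM in WT and 325 to 484 CPM in CharmeKO, without overlap, and the part of these cell types in the results was not tested. No marker of these lists was at 0 in every library. Both genotypes held libraries with high *Xist*: WT replicate 1 and CharmeKO replicates 1 and 2.

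Interferon-γ, secreted mainly by T cells and natural killer cells, signals through its receptor and the JAK kinases, and switches on large families of GTPases in most cell types of the mouse. The immunity-related GTPases (IRGs) and the larger guanylate-binding proteins (GBPs) gather on the vacuoles that hold intracellular parasites and bacteria and help to break them open. Within the IRGs, the regulators *Irgm1*, *Irgm2* and *Igtp* keep the effectors inactive on the membranes of the cell itself, whereas effectors such as the *Tgtp* proteins load onto foreign vacuoles. Promoters of such genes often carry the interferon-stimulated response element (ISRE), bound by IRF factors, or the γ-activated site (GAS).

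The promoters of these genes share such letters. The genes were picked as interferon-inducible GTPases, so matches to these elements are tied to that choice and are given as a description. RefSeq windows on GRCm38.p6, from 250 bases before to 50 bases after the start site, were found for all 10 genes, with 2 windows for *Gbp3*. They were searched on both strands for GAAANNGAAA, an ISRE-like pattern whose reverse complement is TTTCNNTTTC, and for TTCNNNGAA, a GAS-like pattern that is its own reverse complement. An ISRE-like match was present in 8 of the 10 genes, against 3.44% of all 32851 windows, and a GAS-like match in 4 of the 10, against 8.30%. *Tgtp1*, *Tgtp2*, *Igtp* and *Irgm2* had both, in the same order and with 2 bases between them. *Tgtp1* and *Tgtp2* are near-identical copies, and the windows of *Igtp* and *Irgm2* were identical at 68.1% of 270 bases. The matches of these genes are therefore not independent of each other. In these 4 stretches, capitals mark the GAS-like match and then the ISRE-like match.
Tgtp1 (chr11:48992294-48992354, minus strand): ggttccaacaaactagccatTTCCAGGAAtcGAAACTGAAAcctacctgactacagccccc
Tgtp2 (chr11:49064253-49064313, minus strand): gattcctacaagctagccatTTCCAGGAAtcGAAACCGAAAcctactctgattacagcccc
Igtp (chr11:58199491-58199551, plus strand): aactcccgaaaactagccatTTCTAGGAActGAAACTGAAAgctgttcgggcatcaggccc
Irgm2 (chr11:58214882-58214942, plus strand): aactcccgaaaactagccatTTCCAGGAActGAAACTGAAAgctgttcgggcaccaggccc

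*Irgm1*, *Gbp2*, *Gbp3* and *9930111J21Rik1* had an ISRE-like match alone, marked in capitals. In *Irgm1* and *Gbp3* the capitals hold 2 matches that overlap each other. The match of *9930111J21Rik1* begins 26 bases past its start site, and the others lie before theirs.
Irgm1 (chr11:48871415-48871470, minus strand): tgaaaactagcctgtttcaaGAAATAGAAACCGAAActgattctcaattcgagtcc
Gbp2 (chr3:142620584-142620633, plus strand): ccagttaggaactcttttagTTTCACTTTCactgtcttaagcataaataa
Gbp3 (chr3:142559979-142560034, plus strand): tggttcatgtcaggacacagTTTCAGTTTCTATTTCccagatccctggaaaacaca
9930111J21Rik1 (chr11:48979336-48979365, minus strand): cagaggtctgGAAATAGAAActaaatctta

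The windows of *Ifi47* and *9930111J21Rik2* had neither pattern. The window of *9930111J21Rik2* was identical to that of *9930111J21Rik1* at all 283 bases they share, but is shifted by 17 bases, so that it ends within the position of that match. The 60 bases before each start site are shown because these promoters are the same in the reference although the reads on the genes differed most. Capitals mark the 43 bases that both stretches hold.
9930111J21Rik1 (chr11:48979382-48979441, minus strand): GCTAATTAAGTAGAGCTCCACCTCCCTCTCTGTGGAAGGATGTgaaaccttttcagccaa
9930111J21Rik2 (chr11:49051243-49051302, minus strand): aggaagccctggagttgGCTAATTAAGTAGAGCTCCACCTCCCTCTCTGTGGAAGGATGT

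On the mouse genome (GRCm38, GENCODE release M21), 6 of the genes lie in a cluster on chromosome 11, in the order *Irgm1*, *9930111J21Rik1*, *Tgtp1*, *9930111J21Rik2*, *Tgtp2* and *Ifi47*. *9930111J21Rik1* (chr11:48946150-48979398) and *Tgtp1* (chr11:48985327-48994172) are followed at a distance of 70.8 kb by *9930111J21Rik2* (chr11:49015874-49051242) and at 71.0 kb by *Tgtp2* (chr11:49057194-49064206), between gene centres. The cluster thus holds the same couple of genes in tandem, a *9930111J21Rik* gene and a *Tgtp* gene 27.0 kb apart in the first unit and 27.1 kb in the second. *Igtp* (chr11:58199556-58207591) and *Irgm2* (chr11:58199618-58222782) lie farther along the same chromosome, and their gene models overlap on the same strand. *Gbp3* (chr3:142560026-142573209) and *Gbp2* (chr3:142620602-142638008) are 62.7 kb apart on chromosome 3.

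The copies are close enough to affect read counting. The longest transcripts of *9930111J21Rik1* and *9930111J21Rik2* aligned at 98.98% identity over 3221 bases, and those of *Tgtp1* and *Tgtp2* at 99.75% over 2811 bases. *Gm5431* and *Gm12185* were further copies of the *9930111J21Rik* pair, at 95.74% and 92.87% identity to *9930111J21Rik1*. Of all 100-base windows of the longest transcript, 59.7% were found in no other gene for *9930111J21Rik2*, 35.4% for *9930111J21Rik1*, 19.6% for *Tgtp2* and 16.7% for *Tgtp1*. For the other 6 genes this share was 94.3% to 100%. Reads that fit 2 places equally are not counted by the authors' method, so the counts of the 4 copies rest on the parts that differ. The read length is not given in the sources used here, and with 50-base windows the shares fell to between 8.6% and 47.4% for the 4 copies.

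*9930111J21Rik2*, a GTPase gene listed here under a clone number, was close to absent in CharmeKO. It had 2050, 1606 and 538 counts in WT replicates 1, 2 and 3 and 20, 3 and 12 counts in CharmeKO replicates 1, 2 and 3. Scaled to library size by the TMM method, these were 48.2, 61.1 and 57.9 CPM in WT and 0.699, 0.123 and 0.395 CPM in CharmeKO. Every CharmeKO library lay far below every WT library, also at the upper bounds of the exact 95% Poisson intervals, which were 1.08, 0.359 and 0.690 CPM in CharmeKO and cover counting error only. The means were 55.7 ± 6.71 CPM for WT and 0.405 ± 0.288 CPM for CharmeKO (SD, n = 3 each), and the log2 fold change was -7.05 (SE 0.31). In bulk libraries, fewer expressing cells and less RNA per cell cannot be told apart.

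CharmeKO replicate 1, which had the most *9930111J21Rik2* counts of its group, was also the CharmeKO library with *Charme* counts, and held 136 counts of 4 Y-linked transcripts beside 13553 of *Xist*. Without it, the log2 fold change of *9930111J21Rik2* was -7.65, and the part of these values in the result was not tested. Leaving out any one library kept it between -7.65 and -6.66.

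*9930111J21Rik1*, the copy, was not lower. It was at 9.83, 9.97 and 7.32 CPM in WT replicates 1, 2 and 3 and at 16.8, 13.1 and 11.7 CPM in CharmeKO replicates 1, 2 and 3, so that all 3 CharmeKO libraries lay above all 3 WT libraries. The means were 9.04 ± 1.49 CPM (SD, n = 3) and 13.9 ± 2.61 CPM (SD, n = 3), with a log2 fold change of 0.60 (SE 0.19). The genotypes therefore differed in the division of reads between the copies, which the rule did not name but which comes from the same contrast. *9930111J21Rik2* took 83.1%, 86.0% and 88.8% of the pair's counts in WT and 3.99%, 0.926% and 3.25% in CharmeKO.

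The difference in *9930111J21Rik1* was small beside that in *9930111J21Rik2*. Summed, the counted reads of the pair reached 64.8 ± 6.53 CPM in WT and 14.3 ± 2.83 CPM in CharmeKO (SD, n = 3 each). The log2 fold change of this sum was -2.18 (SE 0.16). Reads that fit both copies are missing from the sum and the shares. More of *9930111J21Rik2* can be counted, with 59.7% of 100-base windows found in no other gene, against 35.4% for *9930111J21Rik1*.

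*Tgtp2*, which encodes an effector IRG first described in T cells, was also lower in CharmeKO. It was at 46.1, 64.8 and 50.8 CPM in WT replicates 1, 2 and 3 and at 20.2, 28.1 and 16.1 CPM in CharmeKO replicates 1, 2 and 3, with no overlap. The means were 53.9 ± 9.71 CPM (SD, n = 3) and 21.5 ± 6.14 CPM (SD, n = 3), with a log2 fold change of -1.33 (SE 0.20). Leaving out 1 library kept this value between -1.57 and -1.16.

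Its neighbour and near-identical copy *Tgtp1* overlapped between genotypes. *Tgtp1* was at 23.8, 34.0 and 22.8 CPM in WT and at 27.9, 26.2 and 19.4 CPM in CharmeKO, and its log2 fold change was -0.14 (SE 0.18), or 0.07 without WT replicate 2. *Tgtp1* took 34.1%, 34.4% and 31.0% of the counts of the *Tgtp* pair in WT and 58.0%, 48.2% and 54.8% in CharmeKO, again without overlap. The counted reads of the pair summed to 80.7 ± 15.7 CPM in WT and 46.0 ± 9.61 CPM in CharmeKO (SD, n = 3 each). The log2 fold change of this sum, which again lacks reads that fit both copies, was -0.81 (SE 0.17).

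**Figure D1:**
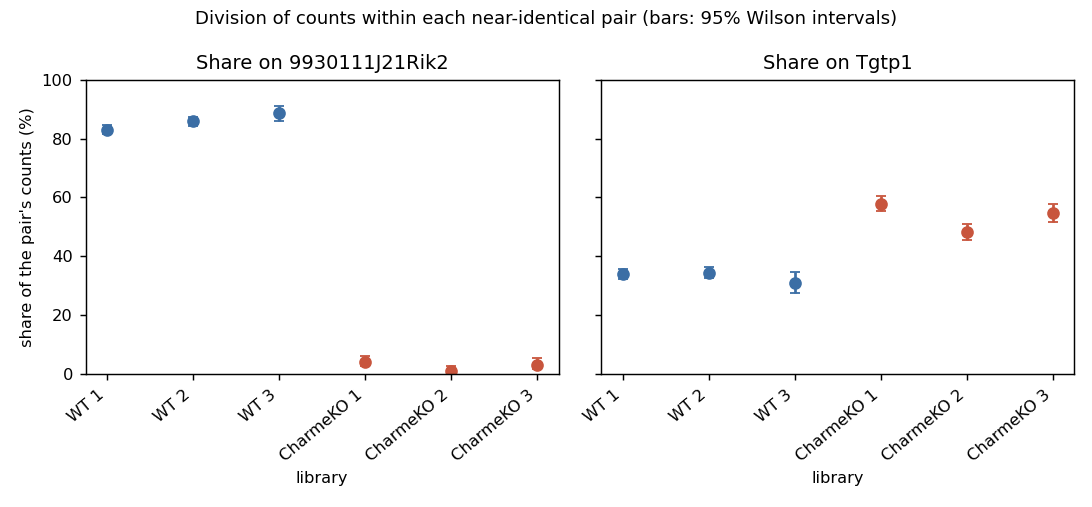
Share of the counts of each near-identical pair that fell on one copy (y axis, percent) in each library (x axis), for 9930111J21Rik2 of the 9930111J21Rik pair and Tgtp1 of the Tgtp pair. Points are libraries, WT in blue and CharmeKO in red, and bars are 95% Wilson intervals that cover counting error only; the 9930111J21Rik2 share is 83.1% or more in WT and 3.99% or less in CharmeKO.

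The regulators of the family did not separate the genotypes. *Irgm1*, whose product also takes part in autophagy, was at 164, 216 and 151 CPM in WT and at 153, 163 and 161 CPM in CharmeKO. *Irgm2*, the product of which sits on the Golgi, was at 35.5, 39.7 and 26.5 CPM in WT and at 35.8, 39.8 and 36.6 CPM in CharmeKO. *Igtp*, found on the endoplasmic reticulum, was at 26.8, 41.4 and 32.3 CPM in WT and at 33.4, 34.4 and 27.4 CPM in CharmeKO. In all 3 genes the ranges overlapped, and the WT libraries were spread more widely than the CharmeKO libraries. The log2 fold changes were -0.16 (SE 0.14) for *Irgm1*, 0.13 (SE 0.15) for *Irgm2* and -0.08 (SE 0.17) for *Igtp*. *Irgm1* and *Igtp* took a positive value without WT replicate 2, *Igtp* also without CharmeKO replicate 3, and *Irgm2* a negative one without WT replicate 3, all 3 staying within -0.26 to 0.25. Reads in the overlap of *Igtp* and *Irgm2* cannot be assigned to either gene.

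*Ifi47*, which encodes another effector IRG, was at 19.6, 25.8 and 22.1 CPM in WT and at 27.9, 30.2 and 25.7 CPM in CharmeKO. Only WT replicate 2 reached the lowest CharmeKO library, and the log2 fold change was 0.31 (SE 0.14). This value had the opposite sign to that of its neighbour *Tgtp2*, 26.1 kb away, but the libraries of *Ifi47* overlapped between genotypes.

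The GBP genes were among the most abundant and differed little. *Gbp2* was at 103.4, 123 and 92.4 CPM in WT and at 120, 141 and 106.1 CPM in CharmeKO, with a log2 fold change of 0.20 (SE 0.14). *Gbp3* was at 87.6, 90.4 and 94.6 CPM in WT and at 89.0, 108 and 86.6 CPM in CharmeKO, with a log2 fold change of 0.06 (SE 0.12), or -0.05 without CharmeKO replicate 2. Both genes overlapped between genotypes.

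**Figure D2:**
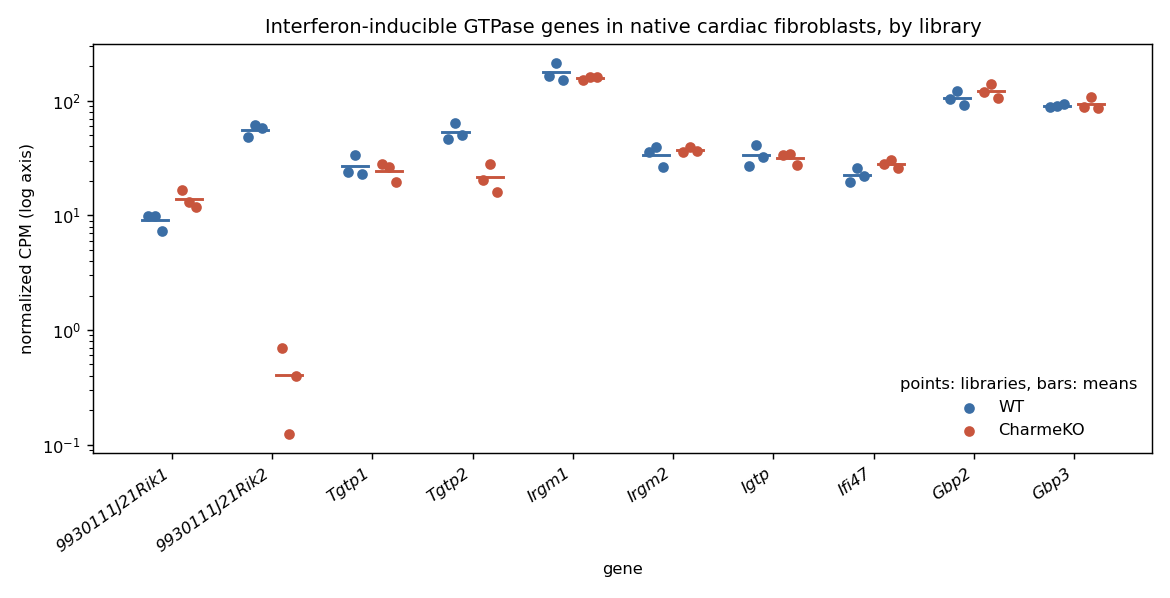
Normalized CPM (y axis, log scale) of the 10 GTPase genes (x axis) in each library. Points are single libraries of WT (blue) and CharmeKO (red), placed left to right as replicates 1, 2 and 3, and bars are group means; 9930111J21Rik2 and Tgtp2 lie lower in all CharmeKO libraries, 9930111J21Rik1 lies higher, and the other 7 genes overlap.

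Differentially expressed genes (DEGs) were those with a Benjamini-Hochberg adjusted p under 0.05 in edgeR's quasi-likelihood test. Of the 10 genes, *9930111J21Rik2* and *Tgtp2* were among the lower DEGs, beside 0.412% of all tested genes, a share from which nothing is read because this contrast chose the genes. Without CharmeKO replicate 1, *Tgtp2* was not among the DEGs, at a log2 fold change of -1.28. For 2 of the 10 genes all CharmeKO libraries lay below all WT libraries, against 8.59% of all tested genes, and for 1 of 10 they lay above, against 9.57%. The median log2 fold change of the 10 genes was -0.01 and that of all tested genes 0.01.

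**Figure D3:**
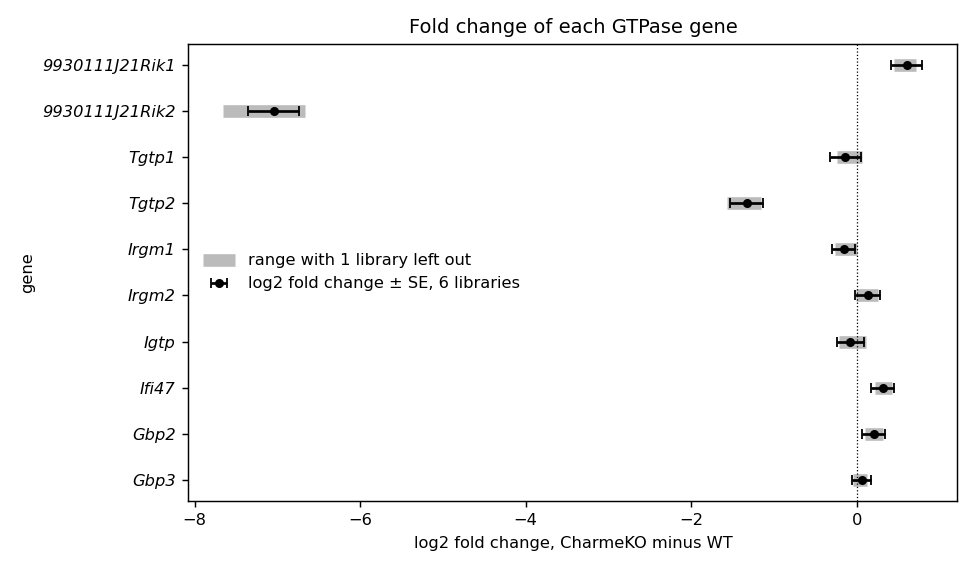
Log2 fold change of each GTPase gene, CharmeKO minus WT (x axis), from the edgeR fit of 6 libraries (points, with bars of 1 SE), and the range of the value when each library in turn is left out (grey). 9930111J21Rik2 stands at -7.05 and Tgtp2 at -1.33, while the other 8 genes lie between -0.16 and 0.60.

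Per kb of exon, the genes could be set side by side within a genotype, with the reservation that uncounted shared reads lower the levels of the copies. In WT the order of mean levels was *Gbp2* at 42.2, *Irgm1* at 30.5, *Gbp3* at 27.8, *Tgtp2* at 18.3, *Igtp* at 16.6, *Irgm2* at 9.18, *Ifi47* at 9.09, *Tgtp1* at 8.38, *9930111J21Rik2* at 7.94 and *9930111J21Rik1* at 1.85 CPM per kb. Neighbours in this order whose libraries did not overlap were *Gbp3* and *Tgtp2*, *Igtp* and *Irgm2*, and *9930111J21Rik2* and *9930111J21Rik1*. The exon lengths include stretches whose reads are not counted, those shared by copies or lying in the overlap of *Igtp* and *Irgm2*. The places of these genes in the order, and the separations that involve them, are therefore not settled in either genotype. In CharmeKO, *Gbp2* at 48.7 and *Gbp3* at 29.0 CPM per kb led, *Tgtp2* stood at 7.31, beside *Tgtp1* at 7.65, and *9930111J21Rik2* was last at 0.0578 CPM per kb.

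Within each genotype, replicate 2 was often the highest library. It was the highest WT library in 9 of the 10 genes, against 38.2% of all tested genes, and the highest CharmeKO library in 7 of 10, against 33.2%. Among the WT libraries, summed levels of the interferon lists and of the fibroblast and endothelial markers were also highest in replicate 2. Those of the leukocyte and cardiomyocyte markers were lowest there, at 30.2 and 218 CPM. Mural and erythroid markers were highest in WT replicates 1 and 3. Single genes did not all follow these sums. *Gsn* alone held 26456 CPM in WT replicate 2, against 18690 and 17340 CPM in WT replicates 1 and 3. *Dcn*, *Pdgfra* and *Tcf21* were also highest in WT replicate 2, but *Col1a1*, *Col1a2*, *Col3a1*, *Lum* and *Thy1* were lowest there. In the interferon-γ-induced list, *Cd74*, *H2-Aa*, *H2-Ab1* and *H2-Eb1* were lowest in WT replicate 2. Among the CharmeKO libraries, endothelial markers were highest in replicate 2, at 8118 CPM, but fibroblast markers were lowest, at 33203 CPM. For the 8 genes other than the *9930111J21Rik* pair, Pearson's r of log2(CPM + 1) over the 6 libraries had a median of 0.48 over 28 gene pairs and ranged from -0.50 to 0.88, differences between genotypes included. The tested genes most like the mean of these 8 were *Clk4*, *Pglyrp1*, *Dock9*, *Kifc2* and *Abr*, with r between 0.986 and 0.997 over 6 libraries, which share depth and genotype. This ranking rests on single libraries, since 0 to 2 of these 5 genes stayed among the 5 most alike when 1 library was left out.

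Around *9930111J21Rik2*, 21 tested genes lay within 500 kb, a window chosen after the values were seen, and 15 of them are not among the 10 GTPase genes. Of these 15, *Or2v2*, an olfactory receptor gene centred 78.9 kb away, was the 1 that passed the test, lower in CharmeKO. Over all tested genes the background was 0.412% lower and 0.418% higher. *Or2v2* had 3.46 ± 1.05 CPM in WT and 0.186 ± 0.134 CPM in CharmeKO (SD, n = 3 each), with a log2 fold change of -4.23 (SE 0.59, edgeR's quasi-likelihood test, adjusted p = 0.00448). *Or2v1*, whose model spans from *9930111J21Rik1* to beyond *Or2v2* on the strand opposite to the *9930111J21Rik* and *Tgtp* genes, had 2.52 ± 0.680 and 0.346 ± 0.251 CPM (SD, n = 3) without overlap, but missed the threshold (edgeR, adjusted p = 0.0708). *Ifi47* lies within that model on the same strand.

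*Psme2b*, whose model overlaps the edge of *9930111J21Rik1* on the same strand, lay higher in all CharmeKO libraries at a log2 fold change of 0.55 (SE 0.19, edgeR, adjusted p = 0.269). The copies *Gm5431* and *Gm12185* had log2 fold changes of -0.12 (SE 0.62) and 0.36 (SE 0.26), both with overlapping libraries. The model of *Gm12185* spans *9930111J21Rik1* and overlaps *Tgtp1* on the same strand. Reads in any exon stretch that such models share cannot be assigned to either gene, and the part of this in the counts was not tested.

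**Figure D4:**
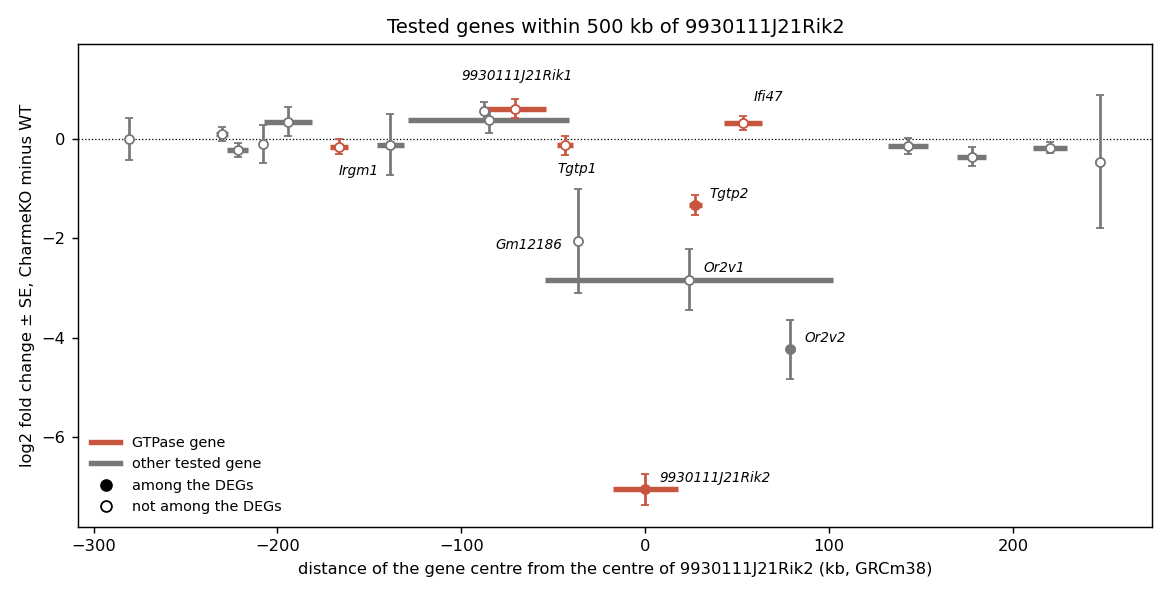
Log2 fold change with SE (y axis) of the 21 tested genes within 500 kb of 9930111J21Rik2, against the distance of each gene's centre from it in kb (x axis). Thick lines span each gene, red for the GTPase genes and grey for others, and filled points are DEGs. The filled points are 9930111J21Rik2, Tgtp2 and Or2v2. Or2v1 and the pseudogene Gm12186, at -2.83 and -2.07, are the low genes that are not DEGs, and the libraries of Gm12186 overlap between genotypes (SE 1.04).

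The other IRG and GBP genes did not pass the test. Of 18 tested family members outside the 10, edgeR called 0 in either direction (background 0.412% lower and 0.418% higher), DESeq2 also called 0 (background 1.55% lower and 0.995% higher), and 1 had an unadjusted p under 0.05, against 12.8% of all tested genes. Their median log2 fold change was 0.07. The 1 gene at an unadjusted p under 0.05 was *Iigp1c*, at 94, 42 and 11 counts in WT and 20, 21 and 17 in CharmeKO. Its log2 fold change was -1.27 (SE 0.46, edgeR, adjusted p = 0.288). *Iigp1*, an effector IRG, had means of 158 ± 22.3 CPM in WT and 159 ± 13.9 CPM in CharmeKO (SD, n = 3 each). *Gbp9*, *Gbp4*, *Gbp7* and *Gbp5* had log2 fold changes between 0.15 and 0.29, and *Irgq* had -0.30 (SE 0.14).

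The signalling genes above the GTPases gave 0 DEGs among 17 tested by edgeR (background 0.412% lower and 0.418% higher) and by DESeq2 (1.55% and 0.995%). Of them, 0 had an unadjusted p under 0.05 (background 12.8%), and the median log2 fold change was -0.03. *Ifngr1*, a chain of the interferon-γ receptor, stood at 177 ± 23.0 CPM in WT and 180 ± 27.6 CPM in CharmeKO (SD, n = 3 each). *Irf1*, a transcription factor that binds the ISRE, was at 663 ± 105.7 and 642 ± 61.7 CPM (SD, n = 3). *Socs3*, *Jak1*, *Stat3* and *Socs1* had log2 fold changes between -0.36 and 0.10. *Ifng*, the cytokine gene itself, had too few counts to be tested, with 0 in every WT library and 9, 7 and 5 in CharmeKO replicates 1, 2 and 3. Up to 3 counts are compatible with a count of 0, which is 0.0705, 0.114 and 0.323 CPM in WT replicates 1, 2 and 3. The CharmeKO values of 0.314, 0.286 and 0.165 CPM lie above the first of these limits and the second, and below the limit of WT replicate 3.

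Of 25 interferon-γ-induced genes outside the GTPases, 2 fell and 0 rose in edgeR (background 0.412% lower and 0.418% higher) and in DESeq2 (1.55% and 0.995%), and 5 had an unadjusted p under 0.05 (background 12.8%). Both genes that fell encode chemokines that bind CXCR3 on T cells. *Cxcl10* went from 89.3 ± 1.11 to 22.2 ± 2.47 CPM (SD, n = 3), a log2 fold change of -2.01 (SE 0.12, edgeR, adjusted p = 3.01e-06). *Cxcl9* went from 62.4 ± 4.43 to 14.5 ± 5.92 CPM (SD, n = 3), a log2 fold change of -2.10 (SE 0.23, edgeR, adjusted p = 0.000802). *Cxcl11*, which encodes the other CXCR3 ligand, did not pass the test at 14, 3 and 0 counts in WT and 13, 21 and 26 counts in CharmeKO, although all its CharmeKO libraries lay above the WT libraries in CPM (log2 fold change 1.95, SE 0.83, edgeR, adjusted p = 0.36). Over the whole list the median log2 fold change was 0.06, and its abundant antigen presentation genes *H2-D1*, *B2m*, *H2-K1*, *Tapbp* and *Tap2*, together with the complement inhibitor *Serping1*, had log2 fold changes between -0.18 and 0.24.

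Genes known for induction by type I interferon gave 0 DEGs among 33 tested in edgeR (background 0.412% lower and 0.418% higher). Of them, 4 had an unadjusted p under 0.05 (background 12.8%), and the median log2 fold change was 0.11. DESeq2 called 2 of them lower (background 1.55%). *Ifit2*, which binds viral RNA, had 111 ± 11.6 CPM in WT and 80.3 ± 8.42 CPM in CharmeKO (SD, n = 3 each; edgeR, adjusted p = 0.141). *Rsad2*, *Irf7*, *Ifi203*, *Stat2* and *Ifit1* had log2 fold changes between -0.20 and 0.24. ATG8 conjugation genes direct IRG and GBP proteins to vacuoles, and their list here also holds partners of other roles, such as *Nlrp3*, *Aim2* and *Casp4*. This list gave 0 DEGs among 18 tested in edgeR (background 0.412% lower and 0.418% higher) and in DESeq2 (1.55% and 0.995%), with a median of -0.03. The 1 gene at an unadjusted p under 0.05 (background 12.8%) was *Nlrp3*, at 35, 24 and 1 counts in WT and 2, 4 and 6 in CharmeKO. *Sqstm1*, *Arhgdia*, *Gdi2*, *Map1lc3b* and *Gabarap* had log2 fold changes between -0.12 and 0.09.

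**Figure D5:**
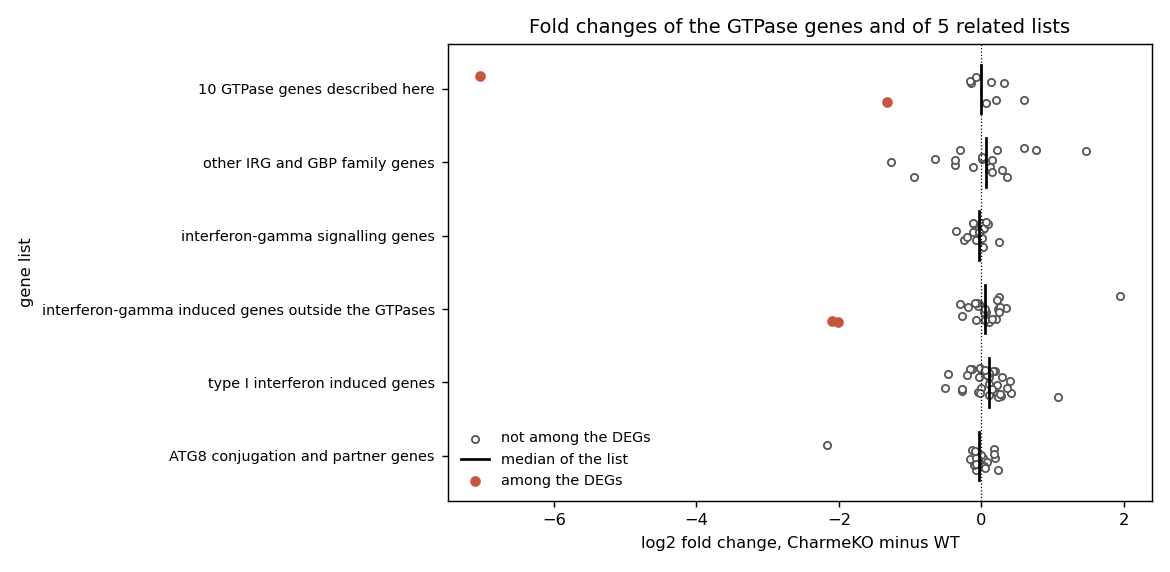
Log2 fold changes, CharmeKO minus WT (x axis), of the tested genes of each list (rows), 1 point a gene, with DEGs filled and the median of each list as a vertical bar. The medians lie between -0.03 and 0.11, and the filled points are 9930111J21Rik2 and Tgtp2 among the 10 GTPase genes and Cxcl9 and Cxcl10 among the interferon-γ-induced genes.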

How the data were processed

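The deposited table holds raw counts per gene for 3 WT and 3 CharmeKO libraries. The authors aligned reads with STAR, counted uniquely mapped reads per gene on Ensembl release 87 with *Charme* added, and kept the "reverse" strand. The submitters' processing notes list GRCh38 and GRCm39, no tool versions are given, and no count was normalized or filtered. No per-sample column was left unmapped (0).

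Genes that reached 10 counts in 2 or more libraries were normalized by TMM and tested in edgeR 4.0.16 (R 4.3.3) with the quasi-likelihood test, without covariates, at a Benjamini-Hochberg adjusted p of 0.05. SEs were computed from each log2 fold change and its F statistic. The edgeR fit was tested on simulated counts. The genes described, the gene lists and the tests were chosen with earlier results of these data known. Named are all 10 genes, the 5 most like them, list genes past the threshold, up to 6 more per list by mean CPM, and copies. *Iigp1c*, *Psme2b*, *Or2v1* and other neighbours of *9930111J21Rik2* were picked after their values were seen. Some list genes are not reported here.

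Positions, exon lengths and transcripts came from GENCODE M21 on GRCm38; release 87 is on that build and GRCm39 is not, so the build of the counts is not settled. Copies came from blastn 2.17.0. Promoter sequences are RefSeq's. Alternatives were DESeq2 1.42.0, other normalizations and filters, a replicate block, a term for the *Xist* split, copies summed, and each library left out. Figures were drawn with matplotlib 3.10.9.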

Additional observations from a re-analysis of the deposited data

How the results depend on the processing

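No DEG among the 10 GTPase genes changed sign in any alternative, while *Tgtp1*, *Irgm1*, *Irgm2*, *Igtp* and *Gbp3*, which are not DEGs, did so with 1 library left out. The 131 DEGs over all genes (65 lower, 66 higher) became 394 with DESeq2 (240 lower, 154 higher), 699 without a filter beyond 1 count (446 lower, 253 higher), and 61 to 349 with 1 library left out: 71 without WT replicate 1, 349 without WT replicate 2, 67 without WT replicate 3, 61 without CharmeKO replicate 1 and 67 without CharmeKO replicate 2. DEGs among the 10 GTPase genes numbered 2, and 1 when the copies were summed, since the *Tgtp* pair as a sum was not called; with 1 library left out they numbered 1 to 2, with *Tgtp2* lost without CharmeKO replicate 1. Type I interferon genes gave 0 DEGs, but 2 with DESeq2 and 2 without the filter. Of the 5 genes most like the GTPase genes, 3 remained under upper-quartile normalization, 2 without the filter and 0 to 2 with 1 library left out. The other 116 values of these comparisons stayed within 1.5 times of those reported or, for shares, within 1 SD. Of the log2 fold changes of the 10 genes, 144 moved by less than 1 SD between replicates, and 2, both of *9930111J21Rik2*, moved by more, to -7.65 and -6.66.

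With the replicate number as a block, 302 genes were DEGs (187 lower, 115 higher), among them 1 type I interferon gene. The deviations of same-numbered libraries correlated at 0.22, 0.05 and 0.16, so the numbers were not taken to pair the samples, although all 6 libraries correlated best with their own number. The block changed no other call among the GTPase genes or lists. Depth limits the CharmeKO values of *9930111J21Rik2*, which rest on 3 to 20 counts, and *Ifng*. The causes of these changes were not tested.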
